A study of Mus musculus with 57 samples.

Results

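In the acute study, 17 of 40 mouse hearts carried high levels of atrial transcripts and 23 carried low levels, and the hearts were compared on that division. The hearts were chosen by 1 measured value, the level of 1 gene. Hearts with at least 100 CPM (a gene's counts per 1000000 counts of that heart) of Myl4, the atrial essential myosin light chain, were called high hearts, and the remaining ones low hearts. The whole series holds 57 hearts, of which the 17 hearts of a chronic study entered only a check at the end. Since Myl4 chose the hearts, its level and those of Myl7, Sln, Nppa and Bmp10, the other markers named with it, are given as descriptions without a test. Myl7 also serves below as the denominator of ratios, some of which were tested.

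The acute study used male C57BL6/J mice, 9 weeks old at purchase, all wild type. Ctrl mice received vehicle, Doxo mice received 1 intraperitoneal injection of doxorubicin at 20 mg/kg, and Doxo-NMN mice received the same injection and nicotinamide mononucleotide at 180 mg/kg/day, started 5 days before Doxo and kept up for 5 days after it. Hearts were taken on day 5 from the mice alive on that day and frozen, and poly(A) RNA was sequenced. The high hearts were 8 of 14 Ctrl, 5 of 13 Doxo and 4 of 13 Doxo-NMN hearts. The low hearts were 6 Ctrl, 8 Doxo and 9 Doxo-NMN hearts. The chronic study used male C57BL6/J mice of 14 to 16 weeks, whose Doxo groups received 5 intraperitoneal injections of 4 mg/kg over 2 weeks and whose Ctrl group received PBS, and its Doxo-NMN mice drank nicotinamide mononucleotide at 500 mg/kg/day, from 5 days ahead of the first injection until tissues were taken on day 60. The labels call every sample heart, and how the organ was trimmed before RNA extraction was not given in the sources used here.

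The heart has 2 pairs of chambers that use different genes for the same work. Atrial myocytes build their sarcomeres with the light chains Myl4 and Myl7 where ventricular myocytes use Myl3 and Myl2. Atrial myocytes also restrain the calcium pump with sarcolipin (Sln), which ventricular myocytes hardly express, and store natriuretic peptide for release into the blood. Phospholamban (Pln), another inhibitor of that pump, is counted below in the ventricular list. The atria also border on the sinus node, the great veins, the valves, fat and nerves, whose cells bring their own transcripts into a piece of tissue. In such bulk RNA, fewer cells of a type and less RNA per cell cannot be told apart.

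Total counts per heart ran from 32409622 to 52102850, so that 3 counts, taken as the detection floor, corresponded to 0.0576 to 0.0926 CPM. In all 123 pairs of hearts with the same treatment and class the counts differed by more than sampling noise (lowest chi-square per gene 10.4), so every heart is a replicate of its own. Labels do not say more on how separate these samples are than that each is 1 heart. A low heart, Doxo replicate 6, stood apart from its treatment. On a scale over 4678 genes where the Ctrl mean is 0 and the Doxo mean is 1 it lay at 0.036, within the Ctrl hearts (-0.0458 to 0.0534) and below the other 12 Doxo hearts (0.464 to 1.44). These same hearts set the scale, so the positions are a description. Doxo replicate 6 was kept, and the counts of genes that differed between the classes are also given without it.

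The atrial genes divided the hearts with wide gaps. Myl4 lay at 1.32, 3.44 and 88.1 CPM (lowest, median and highest) in low hearts and at 262.5, 844.5 and 1728 CPM in high hearts. The hearts next to the limit were Doxo replicate 13 at 88.1 CPM and Doxo-NMN replicate 10 at 35.9 CPM below it, and Doxo replicates 11 and 3 at 262.5 and 314.9 CPM above it. No heart lay between 88.1 and 262.5 CPM, and all 23 low hearts still had Myl4 above the detection floor. Low hearts are hearts with little, not with no, atrial transcript.

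The same order was seen in the other atrial markers. Myl7, the atrial regulatory light chain, ran from 0.0893 to 41.7 CPM in low hearts (median 1.18) and from 112 to 1225 CPM in high hearts (median 545). Sln, the small inhibitor of the calcium pump, ran from 0 to 54.5 CPM (median 0.522) and from 92.7 to 453 CPM (median 228). Nppa, the precursor of atrial natriuretic peptide, ran from 13.4 to 93.6 CPM (median 39.7) and from 296 to 2013 CPM (median 865). None of these ranges overlapped between the classes.

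Bmp10 differed from the other markers. This ligand of the TGF-beta family, made in the trabeculated myocardium of the embryo and in the right atrium of the adult, lay at 0 to 1.37 CPM in low hearts (median 0.457) and at 0.083 to 1011 CPM in high hearts (median 204). Its ranges overlapped, because Ctrl replicate 3, Doxo-NMN replicate 3 and Doxo-NMN replicate 4 had only 8.48, 0.291 and 0.083 CPM while their Myl4 stood at 911, 537 and 494 CPM. The other 14 high hearts had 58.5 CPM of Bmp10 or more.

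The promoters of these genes are shown because the genes moved together and because the lists below include the factors that bind such motifs. RefSeq (GRCm38.p6) gave the 250 bases before the start of 5 of the 7 genes looked up (Myl4, Myl7, Nppa, Bmp10 and Mybphl). Sln and Dkk3 were not matched. The windows printed 5′ to 3′ on the strand of the gene are Nppa chr4:148000472-148000721 (plus strand), Bmp10 chr6:87428744-87428993 (plus), Mybphl chr3:108364661-108364910 (plus) and Myl7 chr11:5898783-5899032 (minus), with motif matches in capitals.

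Nppa: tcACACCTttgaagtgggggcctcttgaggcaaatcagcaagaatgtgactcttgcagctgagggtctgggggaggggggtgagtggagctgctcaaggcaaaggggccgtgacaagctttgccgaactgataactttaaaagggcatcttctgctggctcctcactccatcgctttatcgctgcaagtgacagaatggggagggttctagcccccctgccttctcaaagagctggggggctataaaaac
Bmp10: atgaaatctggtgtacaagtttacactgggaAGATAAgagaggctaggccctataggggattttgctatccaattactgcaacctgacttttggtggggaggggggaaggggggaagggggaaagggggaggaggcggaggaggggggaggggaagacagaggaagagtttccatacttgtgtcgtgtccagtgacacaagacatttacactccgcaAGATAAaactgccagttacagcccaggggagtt
Mybphl: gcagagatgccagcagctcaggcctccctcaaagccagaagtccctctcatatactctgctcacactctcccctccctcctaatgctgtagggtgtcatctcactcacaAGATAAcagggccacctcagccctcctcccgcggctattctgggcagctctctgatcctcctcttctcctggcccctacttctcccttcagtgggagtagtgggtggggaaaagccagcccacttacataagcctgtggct
Myl7: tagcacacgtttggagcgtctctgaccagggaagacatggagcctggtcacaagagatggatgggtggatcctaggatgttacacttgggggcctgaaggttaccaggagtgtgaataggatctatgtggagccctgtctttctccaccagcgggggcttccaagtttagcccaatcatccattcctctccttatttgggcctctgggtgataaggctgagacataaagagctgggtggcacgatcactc

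The motifs searched on both strands were a T-box motif AGGTGT, an NR2F motif AGGTCA, a MEF2 motif TANNNNTAG, an NKX2-5 motif TTAAGTG and a GATA motif AGATAA. Nppa held 1 T-box match, 248 bases before the start and on the opposite strand. Bmp10 held 2 GATA matches, 219 and 33 bases before the start, and Mybphl held 1, 141 bases before the start. The windows of Myl7 and Myl4 held none of the 5 motifs. Of all 32851 windows of this length, 11.8% hold the T-box, 14% the NR2F, 19.0% the MEF2, 2.1% the NKX2-5 and 9.99% the GATA letters, so the matches are a description of the windows and not sites.

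**Figure D1:**
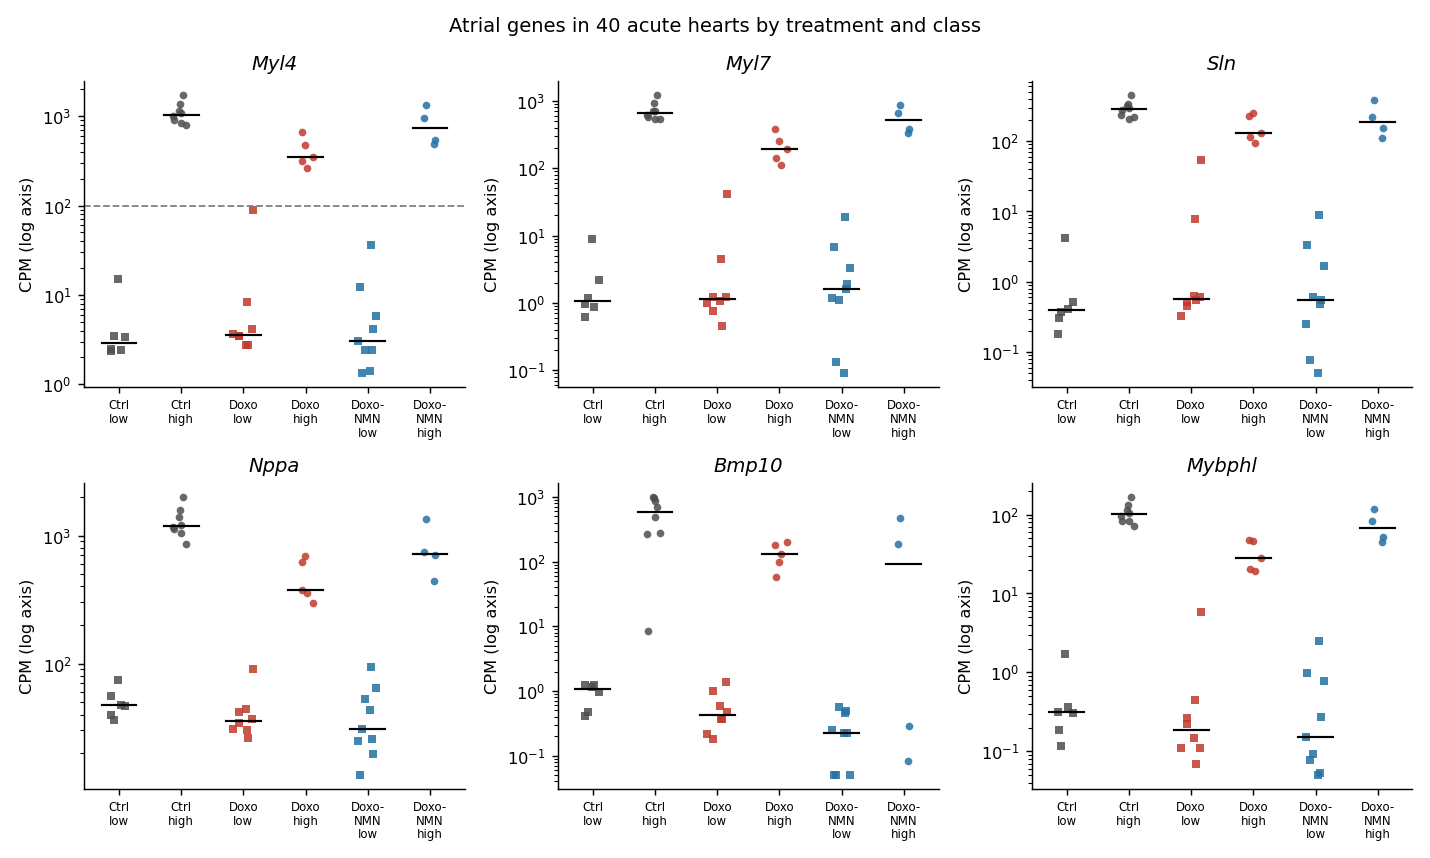
CPM of Myl4, Myl7, Sln, Nppa, Bmp10 and Mybphl in the 40 acute hearts (log axes), by treatment and class, with low hearts as squares, high hearts as circles, medians as bars, values under 0.05 CPM drawn at 0.05, and the limit of 100 CPM as a dashed line. Low and high hearts are apart in every panel except Bmp10, where 3 high hearts lie at 8.48 CPM or below.

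High hearts made up 57.1% of Ctrl, 38.5% of Doxo and 30.8% of Doxo-NMN hearts. Myl4 ran from 802.5 to 1728 CPM in the 8 Ctrl, from 262.5 to 672 CPM in the 5 Doxo and from 494 to 1325 CPM in the 4 Doxo-NMN high hearts, so that the Ctrl and Doxo ranges did not overlap. Since Myl4 set the classes, these shares and levels are descriptions without a test.

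Beyond the markers, 1100 of 15147 tested genes (7.26%) were higher and 60 (0.396%) lower in high hearts, in edgeR's quasi-likelihood test with treatment as a covariate, with an adjusted p under 0.05 and a change of 1.5-fold or more as the call. Together these were 7.66% of the tested genes, Myl4 left out. A gene absent from low hearts enters the test only through the high hearts and so could only be called higher. With at least 10 counts required in every heart, 493 genes were higher and 30 lower of 12214 tested. Without Doxo replicate 6 the numbers were 1171 and 73. Without the fold limit the numbers were 2171 higher and 2340 lower, and the median log2 fold change over all tested genes was -0.02. These p-values describe association with the Myl4 division over 40 hearts and not an effect of a treatment. In Ctrl hearts alone 1060 genes were higher and 66 lower, in Doxo hearts alone 299 and 19, and in Doxo-NMN hearts alone 666 and 12.

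The 4 atrial myocyte genes that are not among the 5 markers, Mybphl, Dkk3, Stard10 and Pam, were all called higher in high hearts, against 7.26% of all tested genes. This list, like those below, was chosen with earlier results of these data known, so its count is a description. Mybphl encodes a myosin-binding protein of atrial and conduction myocytes (chr3:108364911-108380057, plus strand). It lay at 0.0447 to 5.78 CPM in low hearts (median 0.226) and at 19.5 to 168.5 CPM in high hearts (median 81.7), with no overlap. Its log2 fold change was 6.49 ± 0.434 (SE, edgeR adjusted p = 4.12e-15).

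Dkk3, a secreted glycoprotein of the Dickkopf family (chr7:112116017-112159057, minus strand), rose from 1.38 to 46.2 CPM (median 2.71) to 100.6 to 475 CPM (median 213), a log2 fold change of 5.67 ± 0.418 (adjusted p = 4.83e-14). Stard10, a lipid transfer protein, had 11.7 to 32.5 CPM in low hearts (median 15.8) and 41.2 to 208 CPM in high hearts (median 104), a log2 fold change of 2.21 ± 0.151 (adjusted p = 8.02e-15). Pam, the enzyme that amidates peptide hormones and is the main membrane protein of atrial secretory granules, went from 615.5 to 1425 CPM (median 868) to 1513 to 3444 CPM (median 2305). Its log2 fold change of 1.15 ± 0.121 (adjusted p = 5.56e-10) is smaller than those of Mybphl and Dkk3, and its level in low hearts stood far above the detection floor. For all 4 genes the classes did not overlap. The share of all tested genes without overlap is not given here.

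The genes whose log2 CPM followed Myl4 most closely over the 40 hearts were, by Pearson's r, Myl7 and Mybphl (both 0.993), Sln (0.986), Dkk3 (0.983), Tmem163 and Rxfp1 (both 0.978), Sbk3 (0.977), Fgf12 (0.972), Lmntd1 (0.965) and Fras1 (0.958). These 40 points form 2 separate clusters, the classes themselves, so that the values describe the gap between the classes and the spread within them together. Rxfp1, the relaxin receptor, ran from 0.0384 to 1.92 CPM in low and from 3.93 to 24.1 CPM in high hearts. Sbk3, a member of the SH3-binding kinase family, ran from 2.11 to 29.7 and from 63.3 to 235 CPM. Fgf12, an intracellular FGF homologue that modulates sodium channels, ran from 0 to 4.40 and from 6.51 to 64.6 CPM. None of the 10 genes overlapped between the classes, which their choice by likeness to Myl4 all but fixed in advance.

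Among 7 transcription factors of the atrial myocyte, 4 were higher in high hearts, against 7.26% of all tested genes, with a median log2 fold change of 0.68 over the list. Tbx5, a T-box factor of the atria and conduction system, had 16.2 to 41.4 CPM in low hearts (median 25.4) and 40.9 to 113.8 CPM in high hearts (median 63.0), so that only the edges of the ranges met. Its log2 fold change was 1.36 ± 0.096 (edgeR adjusted p = 1.47e-14).

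The nuclear receptors Nr2f1 and Nr2f2 (COUP-TFI and COUP-TFII), which hold the atrial program, were higher by 0.83 ± 0.143 and 0.68 ± 0.074 (adjusted p = 1.68e-05 and 1.15e-09). Nr2f2 lay at 7.70 to 13.6 CPM in low and 14.4 to 26 CPM in high hearts without overlap, while the ranges of Nr2f1 overlapped (0.705 to 4.17 and 2.35 to 6.15 CPM). In Ctrl hearts alone the difference of Nr2f1 fell to 0.46 and was no longer called. Gata4 and Nkx2-5, which myocytes of all chambers use, had log2 fold changes of -0.08 and -0.07, and Hey1, a Notch target of the atria, of 0.10, and none was called.

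Of 9 channels and receptors of atrial electrophysiology, 3 were higher, against 7.26% of all tested genes, and none was called lower. Gja5 (connexin 40), the gap junction protein of atria and conduction system, lay at 1.17 to 6.88 CPM in low hearts (median 3.89) and 7.91 to 48.8 CPM in high hearts (median 23.7), a log2 fold change of 2.37 ± 0.143 (edgeR adjusted p = 2.74e-16). Cacna1h, a T-type calcium channel, lay at 3.65 to 10.2 CPM and 14.2 to 76.0 CPM, a log2 fold change of 2.33 ± 0.155 (adjusted p = 3.68e-15). Neither range overlapped.

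Kcnj3, a subunit of the acetylcholine-activated potassium channel, was higher by 1.03 ± 0.123 (adjusted p = 1.17e-08), with 17 to 91.0 CPM in low and 49.99 to 213 CPM in high hearts. Its partner Kcnj5 (log2 fold change 0.54), the T-type channel Cacna1g (0.57) and the muscarinic receptor Chrm2 (0.35) passed the adjusted p alone and stayed under the fold limit. Kcna5, the channel of the ultrarapid potassium current, went the other way (-0.33, adjusted p = 0.0212, under the fold limit). Kcnk3 and the adenosine receptor Adora1 differed by -0.07 and 0.04.

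Genes of the sinus node and conduction system were called higher in 6 of 11 cases, against 7.26% of all tested genes, with a median log2 fold change of 1.66. Isl1, a transcription factor of the sinus node, was at 0 in 21 of 23 low hearts and reached 0.894 CPM in high hearts (median 0.317). Vsnl1, a neuronal calcium sensor, had medians of 0 and 0.458 CPM. With so many low hearts at or near 0 the fitted folds of Isl1 and Vsnl1 depend on the prior count, and both genes were tested only because high hearts expressed them. Cpne5, a calcium-dependent phospholipid-binding protein, rose from a median of 0.190 to 4.87 CPM (4.43 ± 0.347, edgeR adjusted p = 2.46e-13).

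Shox2, which opposes the working myocyte program in the node, and Cacna1d, a calcium channel of pacemaking, were higher by 1.88 ± 0.257 and 1.66 ± 0.148 (adjusted p = 2.41e-07 and 9.77e-12). Hcn4, the main pacemaker channel of the node, was not called (0.25 ± 0.173, adjusted p = 0.30), with medians of 9.38 and 11.6 CPM, and neither were Tbx3 (-0.01), Smoc2 (-0.16), Tbx18 (0.28) and Rgs6 (0.57). Rgs6, a brake on muscarinic signaling, passed the adjusted p and lay just under the fold limit.

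**Figure D2:**
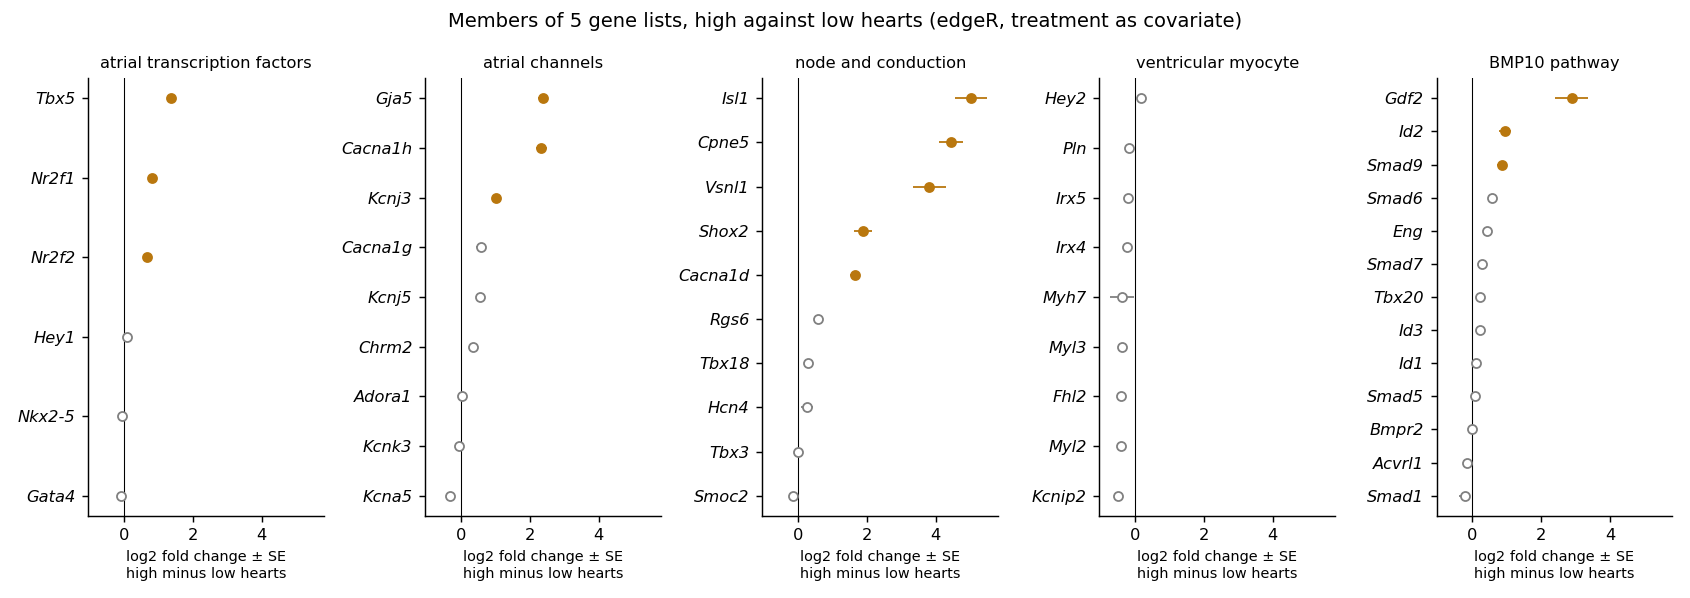
Log2 fold change (high minus low hearts) with its SE, from edgeR with treatment as a covariate, for the tested members of 5 lists without the 5 markers; filled points passed an adjusted p of 0.05 and a 1.5-fold change. The filled points are 3 of the 6 transcription factors drawn, 3 of 9 channels, 5 of the 10 node genes drawn, none of 9 ventricular genes and 3 of 13 BMP10 pathway genes.

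None of 9 tested genes of the ventricular myocyte was called, 5 were lower by the adjusted p alone, and the median log2 fold change of the list was -0.39. Myl2, the ventricular regulatory light chain, had 3203 to 6991 CPM in low hearts (median 6055) and 3281 to 5750 CPM in high hearts (median 4665), a log2 fold change of -0.41 ± 0.083 (edgeR adjusted p = 0.000194). Within Ctrl hearts its ranges were apart, at 5911 to 6537 CPM in low and 4436 to 5750 CPM in high hearts. In Doxo hearts they overlapped (3203 to 6266 and 3281 to 5315 CPM).

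Kcnip2, the subunit that shapes the transient outward current, was lower by the adjusted p (-0.49 ± 0.069, adjusted p = 4.17e-07), as were Myl3, the ventricular essential light chain (-0.39, adjusted p = 0.000699), Fhl2 (-0.41, adjusted p = 0.0103) and Pln (-0.19, adjusted p = 0.0284). Irx4, Irx5 and Hey2, transcription factors of the ventricle, differed by -0.23, -0.22 and 0.17 and were not significant. Myh7, the slow myosin heavy chain, ran from 346 to 15842 CPM in low and from 405 to 15990 CPM in high hearts and was not significant (-0.39, adjusted p = 0.43). Hand1 was too low to be tested. Of 10 genes that myocytes of all chambers share, none was called and 3 were lower by the adjusted p alone (Tnnc1 at -0.29, Ttn at -0.27 and Mybpc3 at -0.29), and Myh6, the fast heavy chain of both chambers in the mouse, differed by -0.08.

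The natriuretic peptide system divided between its 2 cardiac peptides. Nppb, the precursor of B-type natriuretic peptide, was lower in high hearts by -0.79 ± 0.229 (edgeR adjusted p = 0.00712), with 64.7 to 651 CPM in low hearts (median 237) and 71.7 to 273.5 CPM in high hearts (median 149), while Nppa was higher, as described. The ranges of Nppb overlapped, and the call was lost with the replicate number as a block (-0.64, adjusted p = 0.102), with a limit of 500 CPM (-0.60, adjusted p = 0.144) and within each treatment. Npr3, the clearance receptor that removes natriuretic peptides, was higher by 1.83 ± 0.115 (adjusted p = 6.02e-16), at 8.35 to 38.8 CPM in low and 44.5 to 124 CPM in high hearts without overlap. Npr1, the receptor of both peptides, was higher by 0.39 (adjusted p = 2.43e-05), under the fold limit. The convertases Corin and Furin differed by 0.00 and -0.02, and Npr2, Prkg1, Mme and Pde9a were not called either. Nppc was too low to be tested.

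The pathway of BMP10 was followed from ligand to targets. Apart from Bmp10 itself, 3 of 13 tested members were called higher, against 7.26% of all tested genes. Gdf2 (BMP9), the related circulating ligand, was near the floor, at 0 in 13 of 23 low hearts and at a median of 0.415 CPM in high hearts. The receptors Acvrl1 and Bmpr2 differed by -0.15 and -0.02, and the co-receptor Eng by 0.41 (adjusted p = 0.000436), none of them past the fold limit.

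Among the signal carriers and targets, Smad9 was higher by 0.86 ± 0.144 (edgeR adjusted p = 1.14e-05) and Id2 by 0.95 ± 0.166 (adjusted p = 2.17e-05). Id2, an inhibitor of basic helix-loop-helix factors, had a wide and overlapping range, at 4.24 to 29.7 and 6.84 to 30.1 CPM. The inhibitory Smad6 lay at 0.58 (adjusted p = 1.55e-05), just under the fold limit. Id1 (0.11), Id3 (0.21), Smad1 (-0.23), Smad5 (0.07), Smad7 (0.28) and Tbx20 (0.23) were not called.

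The calcium pump regulators other than Sln were called in 1 of 6 tested members, higher in high hearts, against 7.26% of all tested genes. Atp2a1, the pump isoform of fast skeletal muscle, was higher by 1.08 ± 0.177 (edgeR adjusted p = 7.77e-06) from a median of 0.802 to 1.98 CPM. The cardiac pump Atp2a2 had medians of 17985 and 18027 CPM and was not significant (-0.15, adjusted p = 0.114). Hrc (-0.27) and S100a1 (-0.26), both modulators of calcium cycling, were lower by the adjusted p alone, and Mrln differed by -0.17. Of 7 tested myosin light chain genes other than Myl4 and Myl7, 2 were called higher, against 7.26% of all tested genes. They were Myl9 of smooth muscle (1.62 ± 0.129, edgeR adjusted p = 4.28e-13, with no overlap) and Myl1, the fast skeletal form (1.21 ± 0.119, adjusted p = 1.11e-10).

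Markers of cells that lie around the atria moved with the division. The share over all tested genes, to be set beside each count of the lists that follow, was 7.26% higher. A list member nearly absent from low hearts could hardly be called lower. Of the epicardium and mesothelium list, 8 of 9 tested genes were higher, and the summed level ran from 4.29 to 45.9 CPM in low hearts (median 11.3) and from 16.5 to 126 CPM in high hearts (median 68.4). Krt19, Lrrn4, Upk3b and Upk1b, genes of the mesothelial surface, rose by 3.29 ± 0.349, 3.18 ± 0.413, 3.33 ± 0.438 and 3.08 ± 0.447 (edgeR adjusted p = 7.64e-10 to 8.11e-07). Wt1, the transcription factor of the epicardium, did not follow them (-0.06, adjusted p = 0.813), with medians of 4.86 and 5.80 CPM. The part of these cells in the other differences was not tested.

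Fat cell genes were higher in 6 of 8 cases, against 7.26% of all tested genes. Adipoq (adiponectin) ran from 0 to 0.503 CPM in low and from 1.13 to 9.37 CPM in high hearts without overlap, and Cfd (adipsin), Retn (resistin) and Plin1 (the coat protein of lipid droplets) rose by 5.14 ± 0.393, 4.48 ± 0.396 and 4.68 ± 0.462 (edgeR adjusted p = 1.19e-13 to 1.27e-10). In low hearts 12 of 23 had Adipoq at or under 3 counts, so its test rests on the high hearts and could hardly have come out lower. Cidea, which these hearts expressed in both classes (medians 30.7 and 28.1 CPM), took up most of the summed level of the list in low hearts and was not called (-0.32), so that the sums overlapped (23.1 to 97.6 and 32.7 to 158 CPM). Ucp1, the uncoupling protein of brown fat, ranged from 0 to 48.4 CPM among high hearts (median 1.27) against 0 to 1.70 CPM in low hearts.

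The valve and cartilage list was higher in 7 of 8 genes, against 7.26% of all tested genes. Cytl1, a secreted protein of cartilage, had 2.72 to 12.2 CPM in low and 13.1 to 32.4 CPM in high hearts without overlap (1.84 ± 0.136, edgeR adjusted p = 5.28e-14). Comp, Chad and Fmod, matrix proteins of cartilage and tendon, rose by 2.83 ± 0.261, 2.34 ± 0.262 and 3.32 ± 0.376 (adjusted p = 2.22e-11 to 3.93e-09). Col2a1, the collagen that defines cartilage, was at 0 in 9 low hearts and was not called (0.19). Summed levels were 4.30 to 21.6 CPM and 21.4 to 92.1 CPM.

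Smooth muscle genes were higher in 4 of 6 cases, led by Cnn1 (calponin), which lay at 0.418 to 2.06 CPM in low and 3.20 to 18.6 CPM in high hearts (2.59 ± 0.184, edgeR adjusted p = 1.88e-14), with Lmod1 (1.19), Myh11 (0.96) and Tagln (0.72), while Acta2 (0.27) and Smtn (0.03) were not called. The share over all tested genes was 7.26%. Of 8 tested Schwann cell genes 3 were higher. Mbp (myelin basic protein) had 0.599 to 3.23 CPM in low and 3.70 to 13.9 CPM in high hearts without overlap (2.0 ± 0.143, adjusted p = 2.1e-14), and S100b rose by 0.72. Of 7 tested neuronal genes 3 were higher, Snap25 (at 0 in 17 low hearts and at a median of 0.0538 CPM, under the detection floor, in high hearts), Prph (1.6 ± 0.376) and Dbh (0.69 ± 0.238), and the call of Dbh was lost without Doxo-NMN replicate 2 (0.64, adjusted p = 0.0507).

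Of 8 fibroblast genes 4 were higher, by 0.59 to 0.97 (Dcn, Lum, Mfap5 and Col1a2, the last of them called at the edge of the fold limit and lost without any 1 of several Doxo and Doxo-NMN hearts, for example 0.52 without Doxo replicate 1). Of 7 endothelial genes 2 were higher, Vwf (von Willebrand factor, 1.13 ± 0.104, edgeR adjusted p = 2.38e-11) and Npr3, and of 5 lymphatic genes only Lyve1 (0.70). The share over all tested genes was 7.26%. The skeletal muscle genes Pvalb (3.55 ± 0.43) and Actn3 (2.04 ± 0.25) rose from levels near the floor, and the other 3 tested members were not called. None of the tested members of the lists for macrophages (7), thymus and lymphocytes (4), lung (1), red cells (5) and immediate early genes (7) was called.

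**Figure D3:**
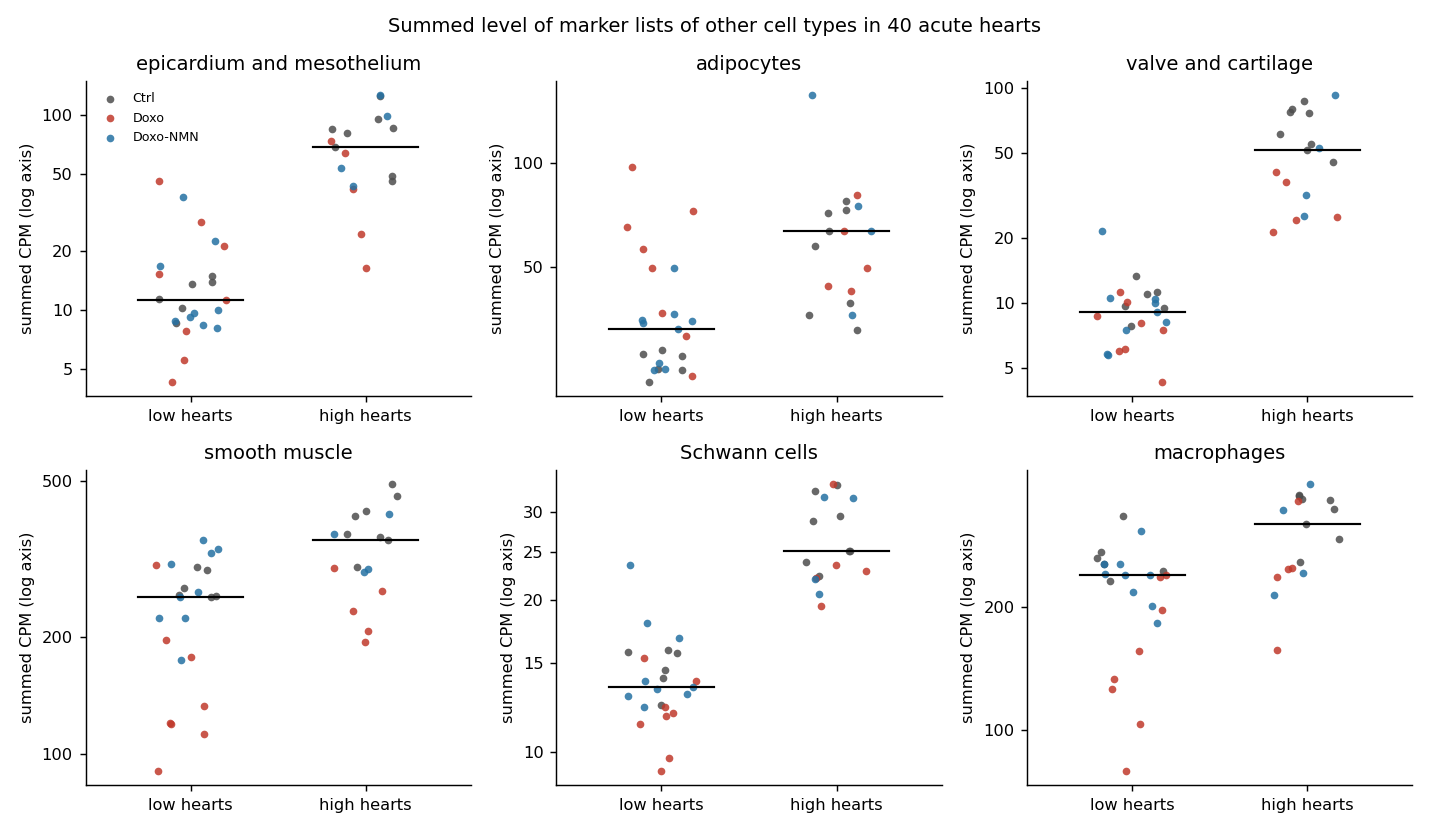
Summed CPM of the marker lists of 6 other cell types in each of the 40 acute hearts (log axes), colored by treatment, with class medians as bars. The medians are 11.3 and 68.4 CPM for epicardium and mesothelium and 9.04 and 51.6 CPM for valve and cartilage, and the ranges of all 6 lists overlap, for valve and cartilage only at their edges (21.6 and 21.4 CPM).

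Outside the lists, the largest rises among genes with a mean of at least 1 CPM included Cd207 (langerin), a lectin known from Langerhans cells, at 0 in 15 of 23 low hearts and at a median of 3.66 CPM in high hearts. Tmem163, a zinc transporter, had 0 to 2.5 CPM in low and 6.21 to 40.6 CPM in high hearts (6.16 ± 0.412, edgeR adjusted p = 4.05e-15). Hamp, the iron hormone hepcidin, had medians of 0.0456 and 11.7 CPM, and Cilp2, a matrix protein, of 0.201 and 21 CPM (5.68 ± 0.315, adjusted p = 2.69e-17). Car3 and Pck1, enzymes abundant in fat cells, rose by 5.36 ± 0.397 and 5.27 ± 0.44 (adjusted p = 5.61e-14 and 1.5e-12). Mlana, a melanosome protein, had 0 to 2.24 CPM in low and 2.59 to 17 CPM in high hearts (5.15 ± 0.354, adjusted p = 8.59e-15). Tmem163, Cilp2 and Mlana did not overlap between the classes. These genes were picked for large rises, which favors such gaps, and the share of all tested genes without overlap is not given here. Genes with many low hearts at 0, such as Cd207, were tested mainly through the high hearts and could hardly be called lower.

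The genes lower in high hearts were few and their differences small. The 10 with the smallest adjusted p, among those with a mean of at least 1 CPM, were lower by 0.59 to 1.69 on the log2 scale, and every one of them overlapped between the classes. Polq, a DNA polymerase of end joining, differed by -0.67 ± 0.096 (edgeR adjusted p = 6.31e-07), Igfals, a carrier of insulin-like growth factors, by -0.79 ± 0.15 (adjusted p = 7.72e-05), and the antioxidant enzymes Cat (catalase) and Gsta1 by -0.59 ± 0.124 and -1.69 ± 0.371 (adjusted p = 0.000285 and 0.000464). The others were Scn4b, a sodium channel subunit of the ventricular conduction system (-0.81), Nos2 (-0.59), Hspb1 (-0.65), Hpn (-0.60), Hsp25-ps1 (-0.70) and Adora2a (-0.69). Hsp25-ps1 is a pseudogene of Hspb1, and their counts may share reads.

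These lower calls were less stable than the higher ones. Cat and Nos2 sat at the fold limit and were lost without each of several hearts (Cat -0.54 without Doxo replicate 8, Nos2 -0.48 without Doxo replicate 6), as was Hpn (-0.54 without Doxo replicate 10). In Doxo hearts alone none of the 10 was called. Of the 60 lower genes, 17 were also called lower in Ctrl hearts alone, 1 in Doxo and 2 in Doxo-NMN hearts alone, against 832, 281 and 563 of the 1100 higher genes.

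Treatment effects on the cardiac lists were also taken within each class. In high hearts Doxo against Ctrl called 13.7% of all genes higher and 13.7% lower (27.3% together), and in low hearts 16.2% higher and 14.5% lower (30.8%). Of the 4 atrial genes outside the markers, Mybphl (-1.7 ± 0.586, edgeR adjusted p = 0.0149) and Stard10 were lower with Doxo in high hearts, while Dkk3 (2.04 ± 0.667, adjusted p = 0.0091) and Pam were higher with Doxo in low hearts. The call of Dkk3 was lost without Doxo replicate 13, the low heart richest in Myl4 (0.71, edgeR adjusted p = 0.245). The difference between the classes passed its test for Stard10 and Pam, as given below, and not for Mybphl and Dkk3. Mybphl followed Myl4 at r 0.993, and Myl4 was lower in Doxo than in Ctrl high hearts without overlap. For atrial genes in high hearts, a Doxo effect and a smaller amount of atrial transcript therefore cannot be told apart.

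Of the 9 channels and receptors, 4 were called lower with Doxo in each class. In high hearts these were Kcna5 (-0.76), Kcnj3 (-1.03), Cacna1h (-0.94) and Gja5 (-0.69), and in low hearts Kcna5 (-1.16), Kcnj3 (-0.60), Cacna1g (-0.78) and Gja5 (-0.98). In low hearts Kcnj3 sat at the fold limit and its call was lost without any 1 of 20 hearts, and in high hearts that of Gja5 without Doxo replicate 11 (-0.54, edgeR adjusted p = 0.0558). The other 5 of each class were not called, and in low hearts Chrm2 (0.42, adjusted p = 0.000229) and Adora1 (0.53, adjusted p = 0.00501) were higher by the adjusted p alone. The pacemaker channel Hcn4 fell in both as well (-1.11 ± 0.315 and -1.15 ± 0.289, edgeR adjusted p = 0.00375 and 0.00108), as did Rgs6 (-0.72 and -0.79). Myh7, which ventricular myocytes take up again under load, rose in both (4.24 ± 0.582 and 4.62 ± 0.643). Of the transcription factors only Nr2f1 was called, lower in low hearts (-1.10 ± 0.232, adjusted p = 0.000169).

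Doxo-NMN against Doxo called 5.88% of genes higher and 5.37% lower in high hearts (11.2% together) and 8.11% higher and 9.61% lower in low hearts (17.7%). Kcna5 was higher with NMN in both classes (1.04 ± 0.222 and 1.06 ± 0.164, edgeR adjusted p = 0.00423 and 1.79e-05). Kcnj3 (0.86, lost without Doxo-NMN replicate 2, edgeR adjusted p = 0.0679) and Gja5 (1.05) were higher in high hearts and Kcnj5 (0.59, at the fold limit and lost without any 1 of 6 hearts) in low hearts. Of the 4 atrial genes outside the markers none was called, and Pam came nearest, at -0.50 ± 0.135 in low hearts. Both comparisons share the Doxo hearts.

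The Doxo effect was also compared between hearts with much and with little atrial transcript. Within high hearts the Doxo hearts held less Myl4 than the Ctrl hearts, without overlap. A Doxo effect and the amount of atrial transcript cannot be told apart there. The difference of the Doxo effect between the classes was called for 9 of 15147 genes (0.0594%), 1 with a more positive effect in high hearts (0.0066%) and 8 with a more negative one (0.0528%), and 1271 genes had an unadjusted p under 0.05. Among these 9 were Pam and Stard10 of the atrial list. Without Doxo replicate 6 the numbers were 8 and 24, in DESeq2 6 and 25, and with the replicate number as a block 0 and 1.

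Pam rose with Doxo in low hearts and was not significant in high hearts. In low hearts it lay at 615.5 to 708 CPM in Ctrl and 674 to 1425 CPM in Doxo, where the lowest is Doxo replicate 6, a log2 fold change of 0.96 ± 0.154 (edgeR adjusted p = 6.25e-06). In high hearts it lay at 1956 to 3444 and 1513 to 2737 CPM (-0.22 ± 0.16, adjusted p = 0.245). The difference of -1.18 ± 0.222 passed the test (adjusted p = 0.0155). Stard10 was lower with Doxo in high hearts (104 to 208 and 44.5 to 79.0 CPM, -1.23 ± 0.204, adjusted p = 1.34e-05) and not significant in low hearts (15 to 18.6 and 13.2 to 32.5 CPM, 0.17 ± 0.189, adjusted p = 0.449), a difference of -1.40 ± 0.276 (adjusted p = 0.0278).

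Cilp2 had 21 to 48.3 CPM in Ctrl high and 2.58 to 8.69 CPM in Doxo high hearts without overlap, and 0.0456 to 0.364 and 0.109 to 1.22 CPM in the low hearts, a difference of -3.55 ± 0.593 (edgeR adjusted p = 0.00456). Adamts8, a secreted protease, fell in high hearts from 3.41 to 10.7 CPM to 1.07 to 1.65 CPM and rose in low hearts from 0.296 to 0.740 CPM to 0.293 to 2.66 CPM, a difference of -3.63 ± 0.517 (adjusted p = 0.000352). Rab3b, a small GTPase of secretory vesicles, followed the same pattern (-1.29 in high and 1.28 in low hearts, difference -2.57 ± 0.472, adjusted p = 0.0155). Abcg1, a cholesterol exporter, was the exception, with 2.94 to 4.94 CPM in Ctrl high and 5.89 to 13.3 CPM in Doxo high hearts, and 3.39 to 4.58 and 1.33 to 3.82 CPM in the low hearts (difference 1.48 ± 0.279, adjusted p = 0.0155). Its call was lost without Doxo replicate 12 (1.22, adjusted p = 0.079).

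The remaining 3, named after their values were seen, were Plekha7, a junction protein (difference -1.64 ± 0.335, edgeR adjusted p = 0.0388), Igsf23 (-2.22 ± 0.466, adjusted p = 0.046) and Gadl1. Gadl1 was at 0 in all 6 Ctrl low hearts, so its fitted fold is no bound. Some of the 9 calls rest on few hearts. When each of the 40 hearts was left out in turn, Stard10 was lost without any 1 of 5 hearts (Doxo replicates 3 and 11 and Ctrl replicates 1, 5 and 6, edgeR adjusted p = 0.0514 to 0.0751), Plekha7 of 11 (adjusted p = 0.05 to 0.102), Igsf23 of 20 (adjusted p = 0.0503 to 0.104) and Gadl1 of 19 (adjusted p = 0.0518 to 0.102). Plekha7, Igsf23 and Gadl1 were also lost when the counts were halved (adjusted p = 0.0553, 0.0553 and 0.15). Pam, Rab3b, Cilp2 and Adamts8 kept the call without each heart. With the replicate number as a block, Adamts8 was the only one of the 9 still called (-4.48, adjusted p = 0.000512). Median Myl7 was 653.5 CPM in Ctrl and 190 CPM in Doxo high hearts, and the low hearts richest in Myl7 were Doxo replicate 13 and Doxo-NMN replicate 10, with 41.7 and 18.7 CPM. The part of these amounts in the 9 differences was not tested, and in high hearts it cannot be told apart from a Doxo effect.

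**Figure D4:**
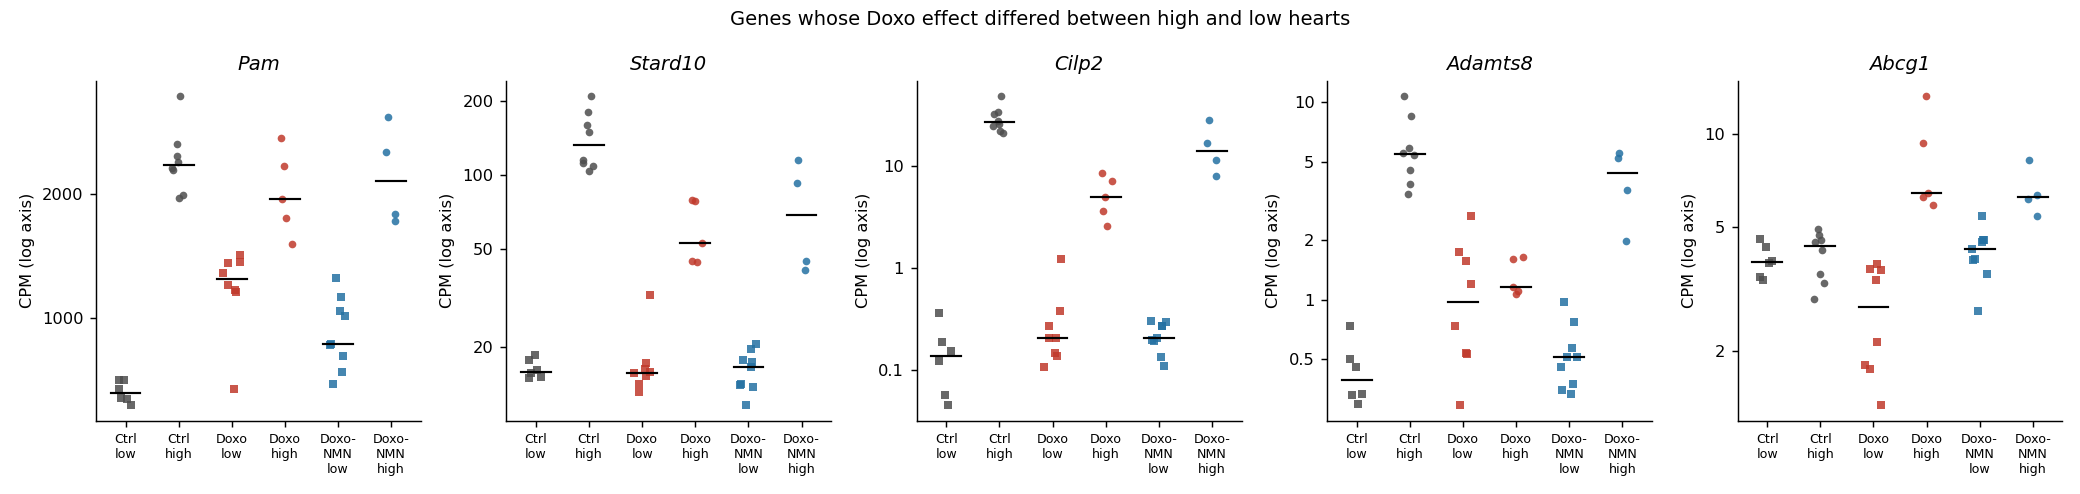
CPM of Pam, Stard10, Cilp2, Adamts8 and Abcg1 (log axes) in the 6 combinations of treatment and class, with low hearts as squares, high hearts as circles and medians as bars. The 5 Doxo high hearts lie below all 8 Ctrl high hearts for Stard10, Cilp2 and Adamts8 and above them for Abcg1.

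The NMN effect, Doxo-NMN against Doxo hearts, differed between the classes for none of the 15147 genes in edgeR, while 1083 had an unadjusted p under 0.05 and DESeq2 called 3 with a more positive and 1 with a more negative effect in high hearts. Adamts8 came nearest (adjusted p = 0.0532). Adding the class as a covariate moved the counts of the treatment comparisons little. Doxo against Ctrl called 2414 genes higher (15.9%) and 2263 lower (14.9%, together 30.9%) with the covariate and 2354 and 2342 without it, and Doxo-NMN against Doxo called 1305 higher (8.62%) and 1448 lower (9.56%, together 18.2%) with it and 1207 and 1434 without it.

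Within the high hearts, genes nearly absent from low hearts were compared with each other rather than with the whole heart. They included genes of fat (Cfd, Car3), mesothelium (Upk3b, Msln) and valve matrix (Fmod) as well as atrial ones. Each gene was divided by Myl7 of the same heart, and a ratio then shows unequal change of the 2 genes and not which of them changed. The idea came from the Sln values. Sln per CPM of Myl7 was 0.364 to 0.474 in the 8 Ctrl, 0.600 to 0.990 in the 5 Doxo and 0.333 to 0.439 in the 4 Doxo-NMN high hearts, so that every Doxo heart lay above every other high heart. In low hearts, Sln had medians of 0.394 CPM in Ctrl and 0.578 CPM in Doxo, against 285 and 132 CPM in the high hearts.

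The comparison was then made for 18 genes with a median of at least 10 CPM in high hearts and at least 10 times their median in low hearts. The markers Sln, Nppa and Bmp10 were described only, and the other 15 gave 30 exact permutation tests (two-sided, Benjamini-Hochberg over the 30). Myl7, the denominator of all 30, is itself a marker and followed Myl4 at r 0.993. The p-values therefore describe change relative to a marker of the rule and are not independent of that rule. Between Doxo and Ctrl 9 of the 15 ratios differed. The share over all genes was not computed. Since Myl7 itself was lower in Doxo high hearts, any gene that did not fall with it would differ. The count is therefore not a result about these genes alone. Dkk3 per CPM of Myl7 stood at 0.273 to 0.444 in Ctrl, 0.943 to 1.89 in Doxo and 0.260 to 0.480 in Doxo-NMN high hearts, a log2 difference between Doxo and Ctrl of 2.07 (SD 0.42 in 5 Doxo and 0.28 in 8 Ctrl hearts, exact permutation p = 0.00155, adjusted 0.00777). In absolute terms Dkk3 was not lower in Doxo than in Ctrl high hearts (178.8 to 475 and 159.8 to 347 CPM), while Myl7 was (112 to 380 and 532 to 1225 CPM).

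Hamp showed the largest difference of the 15 (0.00105 to 0.024 in Ctrl, 0.0471 to 0.288 in Doxo and 0.00043 to 0.015 in Doxo-NMN, log2 difference 3.87). Sbk3 (1.22), Cacna2d2, an auxiliary calcium channel subunit (1.26), Lmntd1 (0.75), and Rxfp1 (0.46) had, like Dkk3 and Hamp, no overlap between Doxo and Ctrl hearts and the same exact permutation p of 0.00155, the smallest that 5 against 8 hearts allow (adjusted 0.00777). Tmem163 (0.43, exact permutation, adjusted p = 0.0133) and Msln (1.25, adjusted p = 0.0317) were higher and Cilp2 (-0.68, adjusted p = 0.0175) lower relative to Myl7, with overlap. The call of Msln was lost without Doxo replicate 1, 11 or 12 (1.21, 0.82 and 1.23, exact permutation, adjusted p = 0.057, 0.0646 and 0.0646).

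Other ratios did not pass the test. The difference between Doxo and Ctrl was 0.08 for Mybphl (exact permutation, adjusted p = 0.485) and -0.20 for Fgf12 (adjusted p = 0.214), which does not show that these ratios are equal. Of the markers, Sln differed by 0.94 and Nppa by 0.33.

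Between Doxo-NMN and Doxo hearts 6 of the 15 ratios differed, all of them lower with NMN and all at the smallest p that 4 against 5 hearts allow (exact permutation p = 0.0159, adjusted 0.0317), with log2 differences of -1.94 for Dkk3, -4.79 for Hamp, -0.98 for Sbk3, -1.93 for Cacna2d2, -0.91 for Lmntd1 and -0.52 for Rxfp1. The share over all genes was not computed here either, and both comparisons share the 5 Doxo hearts. Hamp and Cacna2d2 were lowest in Doxo-NMN replicate 3 (0.00043 and 0.00875) and at 0.00688 and 0.0167 in replicate 4, the Doxo-NMN high hearts poor in Bmp10. Without replicate 3 their differences were -3.83 and -1.47 and without replicate 4 -4.95 and -1.77, and the calls were lost (exact permutation, adjusted p = 0.0714). Leaving out any 1 of the 9 hearts lowered the count of 6 to 0.

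The choice of denominator moved these values. With Mybphl in place of Myl7 the 9 differences between Doxo and Ctrl kept their calls, while between Doxo-NMN and Doxo those of Sbk3 (-0.76), Lmntd1 (-0.69) and Rxfp1 (-0.30) were lost (exact permutation, adjusted p = 0.0833, 0.0609 and 0.105) and Tmem163 was gained (-0.28, adjusted p = 0.0342). With Myl4, which set the classes and so gives values without a test, the differences between Doxo and Ctrl were 0.07 for Rxfp1, 0.05 for Tmem163, 0.36 for Lmntd1, 0.86 for Msln, -0.31 for Mybphl, -0.59 for Fgf12, 1.68 for Dkk3 and 3.48 for Hamp, and between Doxo-NMN and Doxo -0.06 for Rxfp1, -0.45 for Lmntd1, -1.47 for Cacna2d2 and -1.48 for Dkk3.

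**Figure D5:**
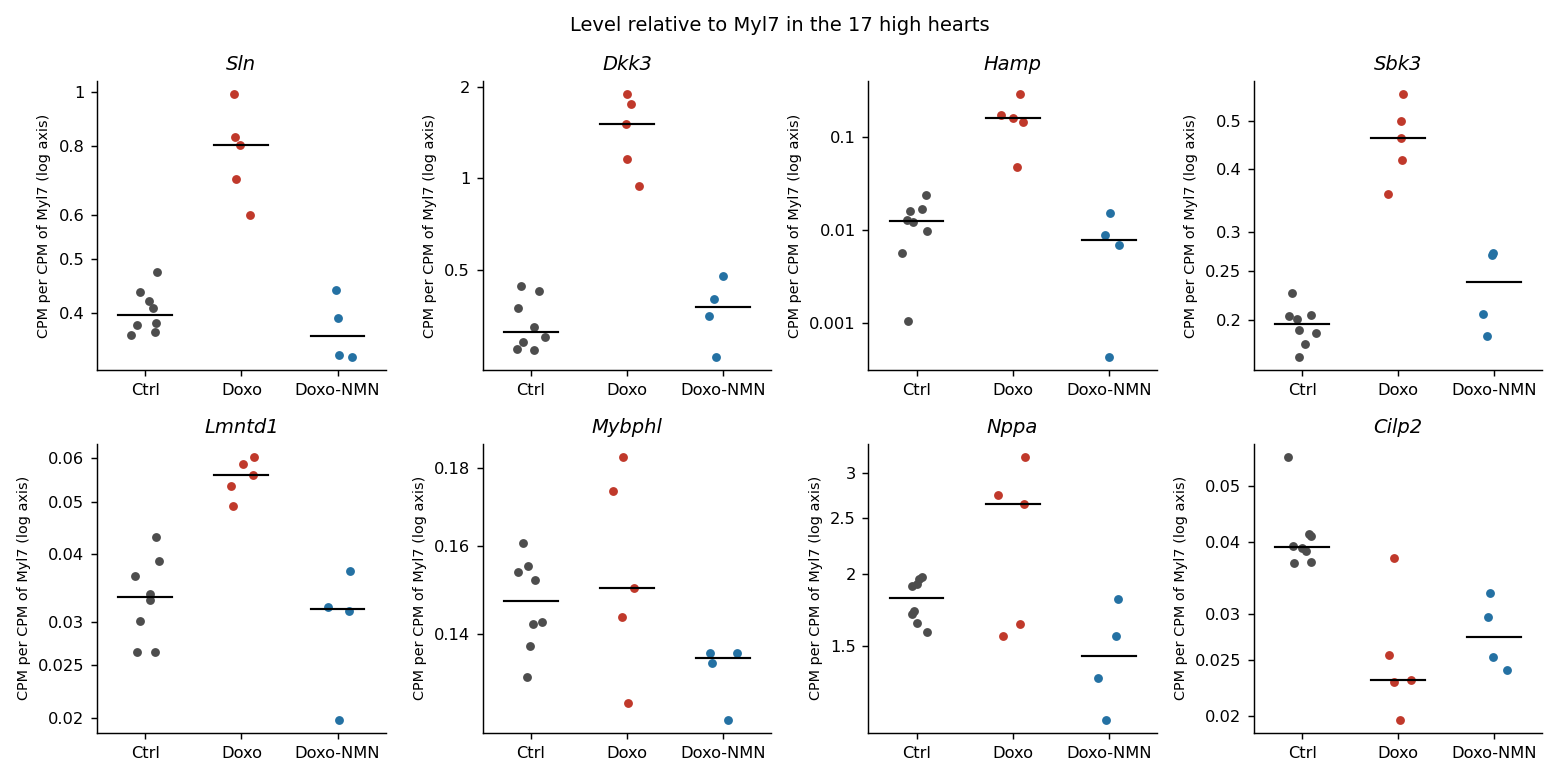
CPM of 8 genes divided by the CPM of Myl7 in the same heart (log axes) in the 17 high hearts, by treatment, with medians as bars. For Sln, Dkk3, Hamp, Sbk3 and Lmntd1 all 5 Doxo hearts lie above all 12 other hearts, and for Mybphl and Nppa the ranges of Doxo and Ctrl overlap.

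The chronic hearts, which took no part in setting the limit, were all low. Their Myl4 ran from 1.4 to 14.1 CPM in 16 hearts and stood at 88.3 CPM in Doxo-NMN replicate 4, so that high and low hearts could not be compared. Of the 1100 genes higher in acute high hearts, 714 were tested over log2 Myl4 as a continuous term in the 17 chronic hearts. A positive slope was found for 594 of them, against 7577 of all 14959 tested genes. Of the acute lower genes 44 were tested, and 18 had a positive slope. Among the 714, 16 were called (2.24%), against 17 positive calls among all 14959 tested genes (0.114%). These calls rest on Doxo-NMN replicate 4, without which 1 gene was called. The signs of the slopes were not counted again without that heart. Nppa did not follow the other atrial genes in these hearts, with 65.1 to 203 CPM in the 5 Ctrl and 123 to 520 CPM in the 6 Doxo hearts while Myl7 stayed at or below 4.39 and 1.4 CPM.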

How the data were processed

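The authors selected poly(A) RNA, sequenced single-end reads, mapped them to mm10 with STAR (2.7.3a in the submitters' processing notes) and counted them per gene with featureCounts 2.0.0. What the authors deposited are whole counts by gene symbol, not normalized, for 25416 genes in the acute and 54658 in the chronic table. Strand setting and annotation are not given in the sources used here. Of the counts from 1 to 20, 73.6% were even (median over hearts). With single-end reads such an excess may mean that reads were counted more than once, in which case 3 counts stand for fewer reads. With the counts halved and rounded, 954 genes were higher and 60 lower in high hearts, of which 939 and 50 were calls on the counts as deposited.

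The division by Myl4, its markers and the gene lists were chosen with earlier results of these data known. CPM used column totals. Genes were filtered with filterByExpr, normalized with TMM and tested with edgeR 4.0.16 (R 4.3.3, quasi-likelihood F-test), with Benjamini-Hochberg adjustment over all tested genes. Differences of the Doxo and NMN effects between the classes were contrasts of a fit with 6 combinations of treatment and class. Named genes were members of 8 cardiac lists, up to 4 called members of each other list, the 15 largest rises and the 10 falls with the smallest adjusted p among called genes with a mean of at least 1 CPM, up to 5 genes per direction of each difference between the classes, and the 10 genes nearest to Myl4. Members of the lists that this rule left out, such as some uncalled ones, were named after their values were seen, as were the genes of the ratios (0.1 CPM was added before log2). Gene positions are from GENCODE for GRCm38, promoters from RefSeq. Permutation tests used scipy 1.17.1. A Fisher test of the shares of high hearts was designed and is not given, because Myl4 defines the classes.

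On simulated counts for high against low hearts (14673 genes), 96 of 100 genes planted at log2 1 and 97 of 100 at log2 2 were recovered, with 0 unchanged genes called. For the difference of the Doxo effect 65 and 97 of 100 were recovered and 7 unchanged genes called. The simulation gave every gene the same dispersion and held no outlying hearts. These numbers check the fit and do not measure its power or error on the real counts. Alternatives were DESeq2 1.42.0, RLE factors, other count filters, no fold limit, Myl4 limits of 50 and 500 CPM, log2 Myl4 as a continuous term, no treatment covariate, each treatment alone, the replicate number as a block, leaving out each heart, and halved counts. All columns were mapped to samples. A few members of the lists enter the counts and are not reported here by name.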

Additional observations from a re-analysis of the deposited data

Results flagged for a closer look

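Of 54 groups of 4 to 10 hearts examined gene by gene, 18 held a heart that lay far from the others, and these came from 5 hearts. A heart was flagged when its gap to the next heart, as a share of the range, passed a fixed limit. The groups share hearts, their genes follow one another and Myl4 cut the classes, so no chance rate is set beside the 18. The rule is a flag and not a test. Among low hearts, Doxo replicate 13 lay above its group in Myl4 (88.1 CPM), Myl7 (41.7), Sln (54.5), Nppa (90.1), Mybphl (5.78), Dkk3 (46.2) and Stard10 (32.5). Doxo-NMN replicate 10 did so in Myl4 (35.9 CPM), Myl7 (18.7), Sln (8.78), Mybphl (2.49) and Dkk3 (24.6), and Ctrl replicate 13 in Myl4 (15.2 CPM), Myl7 (8.73), Sln (4.26) and Mybphl (1.71). Pam was high in Ctrl replicate 14 among the Ctrl high hearts (3444 CPM) and low in Doxo replicate 6 among the Doxo low hearts (674 CPM).

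The Doxo effect differed between high and low hearts, by edgeR's test of the difference, for Abcg1 (1.48), Pam (-1.18), Rab3b (-2.57), Igsf23 (-2.22), Stard10 (-1.40), Plekha7 (-1.64), Cilp2 (-3.55), Adamts8 (-3.63) and Gadl1 (-5.29, a fitted value that depends on the prior count because Gadl1 was at 0 in every Ctrl low heart), all on the log2 scale.

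In the chronic hearts, which the comparisons of the acute study did not use, Doxo-NMN replicate 4 carried atrial genes above the level of the chronic Ctrl hearts, with 88.3 CPM of Myl4, 70.6 CPM of Myl7, 26.6 CPM of Sln, 10.4 CPM of Mybphl and 64.0 CPM of Dkk3.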

How the results depend on the processing

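The 1100 genes higher and 60 lower in high hearts became 493 and 30 when 10 counts were required in every heart, 2171 and 2340 without the fold limit, 2206 and 2264 with log2 Myl4 as a continuous term (adjusted p alone), 299 and 19 in Doxo hearts alone, and 666 and 12 in Doxo-NMN hearts alone. The lower calls alone moved to 94 without a count filter and to 23 with a Myl4 limit of 500 CPM. Leaving out each heart gave 1054 to 1171 higher and 48 to 73 lower. The fit with a replicate block gave 1188 higher and 34 lower. Over 39 pairs of hearts with the same number the correlation of their deviations ran from -0.221 to 0.321, and 4 pairs exceeded 0.1, so the numbers were not taken to pair the hearts; 4 pairs correlated best with their own number.

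For the Doxo effect, 1 more positive and 8 more negative differences became 0 and 1 with the block, 6 and 25 in DESeq2, 1 and 5 with halved counts, and 1 to 8 and 4 to 24 when each of the 40 hearts was left out, the highest of both without Doxo replicate 6. For the NMN effect, 0 and 0 became 1 more positive with RLE factors, 1 without a count filter and 1 with halved counts, 3 and 1 in DESeq2, and 0 to 1 in either direction on leaving out hearts. The share of Doxo hearts called high went from 38.5% to 7.69% at a limit of 500 CPM. The ratios to Myl7 that differed numbered 8 to 9 between Doxo and Ctrl without each Doxo or Doxo-NMN high heart. Between Doxo-NMN and Doxo they numbered 0 (lowest and highest). There the smallest p of 4 against 4 or 3 against 5 hearts would pass the adjustment only if more ratios shared it. Among values called in the main or the changed fit, signs turned for Abcg1 in Ctrl hearts alone (-0.057) and for Adamts8 in Doxo hearts alone (-0.025). In none of these was the cause tested. Over 118 genes, 6202 of 6430 values of the difference between high and low hearts kept their side of the threshold. Most of these values come from fits that left out 1 heart and so share nearly all hearts. A change of sign in a gene called in neither fit counts as kept. Tbx3, for example, ran from -0.051 to 0.028 when each heart was left out. The limits of 50 and 500 CPM for the shares, the ratios, the halved counts, the fits of treatment effects without each low heart and the sets without Bmp10-poor or intermediate hearts were chosen after seeing the data.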

Other observations

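The 3 high hearts poor in Bmp10, singled out after their values were seen, also stood apart in other genes when each was given per 1000 CPM of Myl7. Cd207 was at 0.811 in Ctrl replicate 3, 0.644 in Doxo-NMN replicate 3 and 0 in Doxo-NMN replicate 4, against 2.52 to 25.1 in the other 14 high hearts. Cacna2d2 was at 12.6, 8.75 and 16.7, against 33.2 to 131. Cpne5 was at 5.43, 1.29 and 4.03, against 6.2 to 51.6. Ppp1r1b, the phosphatase inhibitor DARPP-32, was at 13.8, 13.3 and 19.4, against 3.97 to 13.5, and so lay at the upper end. Other genes did not separate these hearts. Nppa was at 1920, 1810 and 1320 against 1120 to 3200 and Gja5 at 45.0, 47.9 and 73.6 against 31.6 to 94.7. Without these 3 hearts 1243 genes were called higher and 76 lower in high hearts. No test was made, since the hearts were chosen by 1 of the genes.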
